A study of Mus musculus with 2 samples.

Results

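Immediate early genes are transcribed within minutes of a stimulus without the need for new protein, and their RNAs are known for rapid decay. Growth factors and serum reach many of them through MAP kinases, which activate ternary complex factors bound beside serum response factor at the CArG box, while cyclic AMP and stress signals act through factors bound at the cyclic AMP response element (CRE). Their products include the Fos and Jun proteins, which pair to form the AP-1 transcription factor, and phosphatases and repressors that switch the response off. The 10 genes described here, Fos, Fosb, Jun, Junb, Jund, Egr1, Ier2, Ier3, Atf3 and Dusp1, were taken by symbol from the protein-coding transcripts of the mouse annotation. All 10 were found among 21587 protein-coding genes, with 12 of 49490 protein-coding transcripts, and 9 of them passed a minimum mean exon value of 1, as did 13697 genes in all.

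The RNA was taken from wild-type embryonic stem cells of the mouse XY line DTCM23/49, a pluripotent culture kept free of feeder cells on gelatin with 15% serum and leukemia inhibitory factor. No stimulus was described, so the values are read as those of growth in serum. Whether the labeling described next moved these genes was not tested. The cells received 200 µM 4-thiouridine (4sU), a uridine analogue that is built into new RNA, for 10 min, and RNA carrying 4sU was biotinylated and pulled from the remainder. Replicate 1 gave 1 library of labeled, newly made RNA and 1 of unlabeled, preexisting RNA, and no difference below has a replicate check. A label also calls the second library total RNA. If that label holds, the ratios below compare new RNA with total RNA.

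Each transcript has an exon value and, where it has introns, an intron value in both libraries. These are relative abundances per length, on a scale 10 times that of TPM, as the sum of a library's exon and intron values shows. For each gene the protein-coding transcript with the highest mean exon value was used. The labeled to unlabeled exon ratio compares 2 relative scales, so a ratio of 1 does not mean equal amounts of new and old RNA. Across the 13697 genes its median was 0.809, or -0.31 on the log2 scale, with quartiles of -1.0 and 0.55, and ratios of members are read against this median.

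The depth behind a value can be estimated. In genes with 1 transcript in the table, low values multiplied by length less 100 bases fell near whole multiples of 358 in labeled RNA and of 282 in unlabeled RNA. Of 2373 labeled and 2086 unlabeled values, 59.0% and 51.8% lay within 0.1 of a whole multiple. The steps and the 100 bases were chosen to bring these same values nearest to whole multiples, so the shares do not test the steps. These steps were taken as the value of 1 read, a choice made after seeing the data, and gave estimated reads and exact 95% intervals (Poisson for a level, Clopper-Pearson for a ratio) that cover counting error only. The reads of Egr1, Dusp1 and Atf3, which have several transcripts, may be divided among those or counted in each, and the intervals of these genes treat the reads of the transcript as its own.

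The cells carried the markers of embryonic stem cells. Exon values in labeled and unlabeled RNA were 161 and 256 for Pou5f1, 389 and 846 for Nanog and 154 and 345 for Sox2, and all 8 markers of the list passed the minimum. Over 8 fibroblast markers the values summed to 8.07 and 19.0, most of it from Thy1 at 6.03 and 14.5, while Col3a1, Lum, Pdgfrb and Postn were listed at 0 in exons in both libraries. The 4 endoderm markers summed to 1.22 and 2.49, with Foxa2, Gata6 and Sox17 at 0, and the 3 mesoderm markers to 2.40 and 1.43, most of it from Eomes. Of the neurectoderm markers, Pax6 stood at 8.40 and 10.1 and Sox1 at 0.760 and 1.56.

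Among the members, Egr1 and Dusp1 were abundant and the AP-1 genes were low. The order of mean exon value was Egr1, Dusp1, Ier2, Ier3, Jun, Atf3, Jund, Junb, Fos and Fosb. Among the members that passed the minimum, labeled values ran from 185 for Egr1 to 2.23 for Junb. The intervals of Jun, Atf3 and Jund overlapped in each library, as did those of Junb with Atf3, Jund and Fos, so the order of these neighbours was not resolved at this depth. The labeled value was the higher one for Fos, Atf3, Ier2, Jun, Junb and Jund, 6 of the 9 measured members beside 39.9% of all genes, and the lower one for Dusp1, Ier3 and Egr1. Leakage of unlabeled RNA into the labeled pool was not measured. It was assumed to be 0.144 of the unlabeled value, a share taken from the low end of these same ratios. After subtraction of leakage, Junb and Jund turned to log2 ratios of -0.01 and -0.18, which left 4 of 9 beside 34% of all genes. Dusp1 turned to 0.09 after centring on the median of all genes, which shifts every gene alike.

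**Figure D1:**
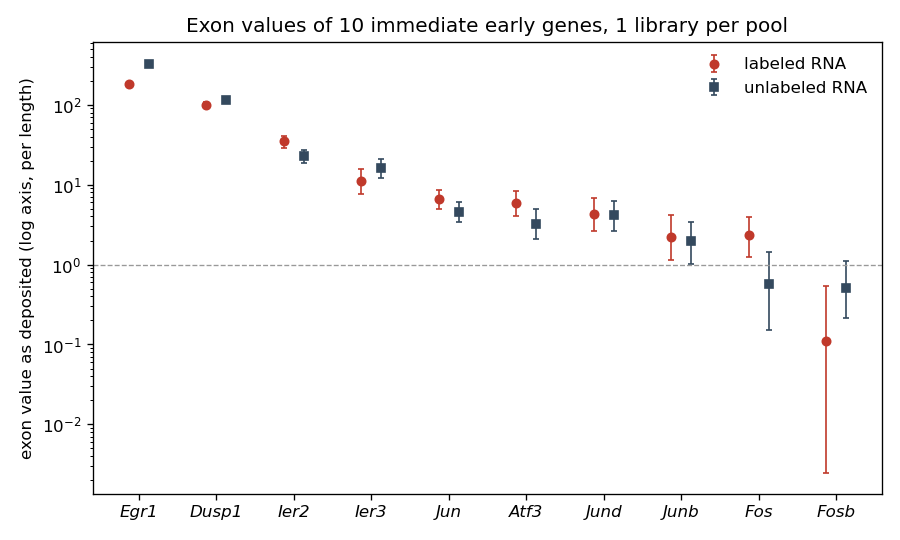
Exon values of the 10 genes in labeled RNA (circles) and unlabeled RNA (squares), 1 library each, on a log axis in the deposited unit per length, with 95% Poisson intervals of the estimated reads. The dashed line is the minimum mean value of 1. Egr1 (185 and 323) and Dusp1 (99.3 and 115) stand far above the Fos and Jun genes, and Fosb lies under the line in both libraries.

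Fos encodes the founding partner of Jun in AP-1 and is the textbook immediate early gene. Its transcript ENSMUST00000021674 lies on chromosome 12 from 85473890 to 85477273 of GRCm38, plus strand, with 4 exons over 3384 bases. Fos had an exon value of 2.34 in labeled and 0.570 in unlabeled RNA. The labeled value was 4.11 times the unlabeled one, a log2 ratio of 2.04, above 93.9% of all genes. Among genes under 5000 bases this ratio stood above 87.4%. In the transcripts used, Fos was the only measured member with a labeled value at least 2 times the unlabeled one, or 1 of 9. Of all genes 16.8% passed that ratio, so the count is no higher than the background. Fos passed the minimum mean of 1 only through its labeled value, so the minimum and the ratio are not independent here. The ratio of Fos rests on an estimated 13 labeled and 4 unlabeled reads. Its interval, 1.27 to 17.4, lies above 1 and holds 2. Both intron values of Fos, over 1276 intronic bases, were listed at 0. A count of 3 reads would give an intron value of 0.913 in labeled and 0.719 in unlabeled RNA, so the intron to exon ratio could be up to 0.390 in labeled and 1.26 in unlabeled RNA at the exon values given, and up to 0.740 and 4.70 at the lower ends of their intervals. The introns of Fos are thus not informative at this depth.

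Fosb, the paralogue of Fos, was near the limit of detection. Its transcript ENSMUST00000003640 (chromosome 7, 19302696 to 19310051, minus strand, 4 exons) had an exon value of 0.110 in labeled and 0.510 in unlabeled RNA, about 1 and 7 estimated reads. The log2 ratio of -2.21 has an interval that holds 1 on the linear scale, 0.00402 to 1.41, and Fosb was not counted among the measured members. Intron values were 0.0800 and 0.330, about 1 and 4 reads. Fos and Fosb thus lay on opposite sides of the distribution of all genes, but both with few reads.

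The Jun genes, which encode the basic leucine zipper proteins that bind as dimers among themselves or with Fos, have no introns and 1 exon each. Jun (ENSMUST00000107094, chromosome 4, 95049034 to 95052222, minus strand) had an exon value of 6.62 in labeled and 4.57 in unlabeled RNA, a ratio of 1.45 (0.972 to 2.16) from 57 and 50 reads. Junb (ENSMUST00000064922, chromosome 8, 84976910 to 84978718, minus strand) had 2.23 and 1.96, a ratio of 1.14 (0.465 to 2.88). Jund (ENSMUST00000095267, chromosome 8, 70698949 to 70700616, plus strand), a family member that is usually expressed without induction, had 4.28 and 4.18, a ratio of 1.02 (0.540 to 2.01). On the log2 scale the ratios were 0.53, 0.19 and 0.03. All 3 intervals hold 1 and overlap one another. Read against the median ratio of all genes, 0.809, that of Jun lay above it, and those of Junb and Jund held it.

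Egr1, a zinc finger transcription factor that is the standard readout of MAP kinase signaling, was the most abundant member and, of the 9 measured, the one with the lowest ratio. Its transcript ENSMUST00000165033 (chromosome 18, 34861207 to 34864956, plus strand, 3 exons) had an exon value of 185 in labeled RNA, above 91% of all genes, and 323 in unlabeled RNA, above 92.2%. The labeled to unlabeled ratio was 0.571 (0.537 to 0.607), a log2 ratio of -0.81, above 31.9% of all genes. The other protein-coding transcript, ENSMUST00000064795, with 2 exons, had 118 and 206 and a ratio of 0.571 as well. Egr1 was the only measured member whose interval lay below the median ratio of all genes. The wider interval of Ier3 held that of Egr1, so the lowest place was not resolved at this depth.

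Atf3, a stress-induced repressor of the ATF/CREB family, had the next highest ratio after Fos, with an interval that overlapped those of Ier2 and Jun. Its transcript ENSMUST00000027941 (chromosome 1, 191170296 to 191183340, minus strand, 4 exons) had an exon value of 5.82 in labeled and 3.24 in unlabeled RNA, a ratio of 1.80 and a log2 ratio of 0.85. The interval was 1.00 to 3.24 from 31 and 22 reads, so the excess in labeled RNA is at the edge of what the reads of this transcript resolve. Another protein-coding transcript, ENSMUST00000195117, which starts further upstream, had 4.14 and 2.41, a ratio of 1.72. The sum of the 2 gave 1.76. With the non-coding ENSMUST00000131854, at 1.59 in labeled RNA from about 2 reads and listed at 0 in unlabeled RNA, it gave 2.04, while the reads of all 3 gave 1.83 (1.17 to 2.85, if no read is counted in more than one).

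Dusp1 encodes the nuclear phosphatase that dephosphorylates MAP kinases and so ends the signal that induced it. Its protein-coding transcript ENSMUST00000025025 (chromosome 17, 26505590 to 26508519, minus strand, 4 exons) had an exon value of 99.3 in labeled and 115 in unlabeled RNA. The ratio was 0.863 (0.770 to 0.964), a log2 ratio of -0.21, near the median of all genes. The annotation also holds transcripts of Dusp1 that keep introns. ENSMUST00000126178 had 86.7 and 94.7, a ratio of 0.915, and the shorter ENSMUST00000146077 had 112 and 88.6, a ratio of 1.27. Over all 4 transcripts of Dusp1 the summed reads gave a ratio of 0.940 (0.874 to 1.01), if no read is counted in more than one. The summed values per length, in which short transcripts weigh more, gave 1.01, and this includes ENSMUST00000011196, at 2.24 in labeled RNA from about 2 reads and listed at 0 in unlabeled RNA, so the sum does not show a change of direction.

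The Ier genes were named for their early response and share no protein family. Ier2, a nuclear protein gene with 1 exon (ENSMUST00000060427, chromosome 8, 84661331 to 84662852, minus strand), had an exon value of 34.8 in labeled and 22.7 in unlabeled RNA. The ratio was 1.53 (1.18 to 1.97), a log2 ratio of 0.61, with 138 and 115 reads behind it. Ier3, a regulator of cell survival (ENSMUST00000003635, chromosome 17, 35821684 to 35822923, plus strand, 2 exons), had 11.1 and 16.2, a ratio of 0.689 (0.433 to 1.08) and a log2 ratio of -0.54. The relative level of Ier2 was thus higher in the labeled library, while the interval of Ier3 held both 1 and the median ratio of all genes. The single intron of Ier3 spans 109 bases, close to the length that the estimate of reads subtracts, and its values of 0 carry no information on splicing.

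Over the 9 measured members the median log2 ratio was 0.19, beside -0.31 over all genes, and 7 of 9 lay above the median of all genes. The median of the members turned to -0.01 after subtraction of leakage. At mean exon values above 10 it was -0.38, beside -0.48 over all genes at that level. With Fosb the median was 0.11. Relative to the median of all genes the log2 ratios were 2.34 for Fos, 1.15 for Atf3, 0.92 for Ier2, 0.84 for Jun, 0.49 for Junb, 0.34 for Jund, 0.09 for Dusp1, -0.23 for Ier3 and -0.50 for Egr1. On this centred scale 2 of 9 members, Fos and Atf3, passed a ratio of 2, beside 22.1% of all genes. No measured member had a ratio of 0.5 or less on either scale, beside 25% of all genes as deposited and 15.4% after centring. After subtraction of leakage 1 of 9 did, Egr1 at a log2 ratio of -1.23, beside 38.1% of all genes. The counting intervals of Fos, Jun, Ier2 and Atf3 lay above the median ratio of all genes, and those of Junb, Jund, Ier3 and Dusp1 held it.

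**Figure D2:**
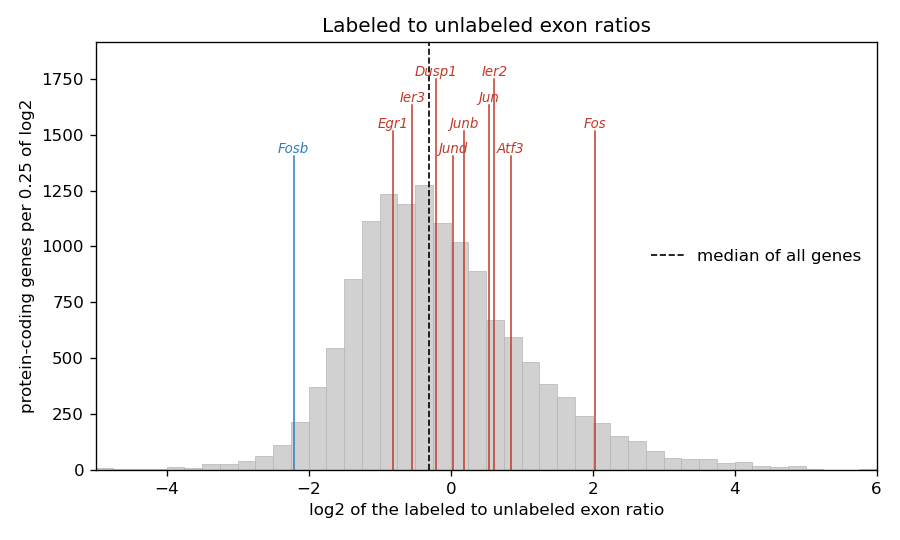
Histogram of the log2 labeled to unlabeled exon ratio over 13697 protein-coding genes (bars, genes per 0.25 of log2), with the 10 genes marked by lines and the median of all genes, -0.31, as a dashed line. Fosb, in blue, did not pass the minimum. Most members stand in the body of the distribution, with Fos at 2.04 to the right and Egr1 at -0.81 to the left.

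Short genes had higher ratios in these libraries, and most members are short. The median unspliced length of the 10 genes was 3060 bases, beside 17991 for all genes, and 8 of 10 were under 5000 bases, beside 17.5% of all genes. Among the 2397 genes under 5000 bases the median log2 ratio was 0.34, and only 3 of the 8 short members that passed the minimum, Fos, Ier2 and Jun, lay above it. Genes of 1 exon, 547 in all, had a median of 0.19, and 2 of the 4 members of 1 exon, Ier2 and Jun, lay above it. Ratios also moved with level, with a median of 0.22 at mean exon values of 1 to 10 and -0.48 above 10. The part of length and level in the members' ratios was not tested.

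Intron values can come from RNA not yet spliced and from transcripts that keep an intron, which were not told apart here. Of the 6 members with an intron value, Fosb did not pass the minimum, and Fos and Ier3 were at 0, which leaves Egr1, Dusp1 and Atf3. A labeled intron to exon ratio of 1 or more was found in 21.4% of all genes with an intron value and in 0 of 5 measured members. Only 3 of these 5 had intron values above 0, and the interval of Atf3 holds 1, so nothing is read from this count. In Egr1 the intron value was 9.90 in labeled and 4.32 in unlabeled RNA, for intron to exon ratios of 0.0536 (0.0312 to 0.0863) and 0.0134 (0.00584 to 0.0243). In Dusp1 the intron value was 30.9 in labeled and 4.32 in unlabeled RNA, for ratios of 0.311 (0.242 to 0.401) and 0.0375 (0.0201 to 0.0652). In Atf3 it was 4.57 in labeled and 0.260 in unlabeled RNA, for ratios of 0.785 (0.523 to 1.19) and 0.0802 (0.0330 to 0.172).

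In the transcripts used, with 714, 940 and 11061 intronic bases, the labeled ratio was lowest in Egr1 and highest in Atf3, with no overlap of the intervals. The order of Dusp1 and Atf3 depended on the transcript, as the other protein-coding transcript of Atf3, with 45838 intronic bases, had a labeled ratio of 0.370, inside the interval of Dusp1. The other transcript of Egr1, with 678 intronic bases, had 0.0799. Egr1 stood among the lowest of all 12420 genes with values above 0, above only 3.82% of them in labeled and 7.71% in unlabeled RNA. The medians over all genes were 0.471 and 0.0918, and over genes under 5000 bases 0.206 and 0.0624. Among these short genes the lower quartile in labeled RNA was 0.0735, above the 0.0536 of Egr1 and below the 0.0799 of its other transcript. The median of the 3 members was 0.311 in labeled and 0.0375 in unlabeled RNA. In each of the 3 the labeled ratio was the larger, by 4.02 times in Egr1, 8.30 times in Dusp1 and 9.79 times in Atf3, beside a median of 4.97 over all genes.

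The Zeisel model treats synthesis, processing and degradation as constant, and its ratios of unlabeled and of labeled RNA give a processing and a degradation rate. All 3 measured members with values above 0 met its conditions and had rates, as did 8887 of 12420 genes. Only Atf3 had an exact solution, with a degradation half-life of 93.1 min and a processing half-life of 13.4 min. Among all genes with rates 2564 had 1 solution, 728 had 2 and 5593 had none, and nothing is read from the counts of members. Egr1 and Dusp1 had none, and the fit in 1 variable that the study uses in that case gave degradation half-lives of 78.1 and 11.1 min and processing half-lives of 3.23 and 2.73 min. Over 8887 genes with rates the medians were 19.6 min for degradation and 3.69 min for processing. These half-lives were not stable. When both variables were fitted at once, the degradation half-life was 5.21 min for Egr1 and 3.53 min for Dusp1. With the unlabeled library taken for total RNA, as a label also calls it, it was 24.2 min for Egr1, 55.8 min for Dusp1 and 155 min for Atf3. Subtraction of leakage gave 6.79 min for Dusp1 and 163 min for Atf3, and the sum over protein-coding transcripts gave 28.6 min for Atf3. No order of decay among the members can be read from these values.

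The regulators that lie upstream of these genes mostly had low ratios. Of 14 genes for serum response factor, its cofactors, CREB factors and MAP kinases, 0 passed a ratio of 2 and 8 were at 0.5 or less, beside 16.8% and 25% of all genes, with a median log2 ratio of -1.11 beside -0.31. The highest were ternary complex factors: Elk3 had an exon value of 19.3 in labeled and 10.3 in unlabeled RNA (ratio 1.87, 1.51 to 2.31), Elk4 had 58.1 and 51.2, and Elk1 had 15.2 and 19.3. The lowest was Mrtfa, the actin-sensing cofactor of serum response factor, with 9.93 and 34.9, a ratio of 0.284 (0.213 to 0.375). Srf itself, chosen after its value was seen, had 11.6 and 24.9, a ratio of 0.466. Neither level nor length was matched for this list or those below. Over all genes with a mean exon value above 10 the median log2 ratio was -0.48.

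Of 8 further genes whose products pair within AP-1, 5 passed the minimum, 1 at a ratio of 2 or more and 1 at 0.5 or less (20% each, beside 16.8% and 25% of all genes), with a median log2 ratio of -0.93. The high one was Fosl2, a Fos paralogue, with 2.25 and 0.560, a ratio of 4.02 (2.05 to 7.96), and the low one Fosl1 with 1.12 and 2.67, a ratio of 0.419 whose interval, 0.145 to 1.19, holds 1. Both were named after their values were seen. Fosl2 thus had levels and a ratio close to those of Fos. Like Fos, it passed the minimum only through its labeled value, so nothing more is read from the likeness. The abundant genes of the list were Atf2, with 218 in labeled and 416 in unlabeled RNA, and Atf7, with 36.6 and 71.8, at ratios of 0.525 and 0.509. Batf and Batf2, also named after their values were seen, were listed at 0 in both libraries.

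Of 12 other rapidly induced transcription factor genes, 8 passed the minimum, again 1 high and 1 low (12.5% each, beside 16.8% and 25% of all genes), with a median log2 ratio of -0.51. Maff, a small Maf factor and also chosen after its value was seen, had 12.3 in labeled and 1.72 in unlabeled RNA, a ratio of 7.17 (3.86 to 15.5). Among genes with a mean of at least 10, Klf6 had 59.5 and 72.5, Csrnp1 9.51 and 12.3 and Klf10 97.4 and 154, at ratios of 0.821, 0.776 and 0.634. Bhlhe40, a repressor of the circadian clock, was the lowest with 10.3 and 23.4, a ratio of 0.439. No zinc finger gene named here reached the level of Egr1.

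Of 24 other rapidly induced genes 23 passed the minimum, with a median log2 ratio of 0.02. A ratio of 2 or more was found in 6 and one of 0.5 or less in 7, or 26.1% and 30.4%, beside 16.8% and 25% of all genes. Of these 6, Tnfaip3 (1.96 and 0.540) and Ier5 (2.93 and 0.440) passed the minimum only through their labeled values. The highest among genes with a mean of at least 10 were Gadd45g, a growth arrest gene, with 29.5 in labeled and 8.73 in unlabeled RNA (ratio 3.38), the antiproliferative gene Btg2 with 20.4 and 6.60 (ratio 3.10) and Ccn2, which encodes a matrix protein, with 22.5 and 9.67 (ratio 2.32). The lowest was Rhob, a small GTPase gene, with 12.3 and 49.6, a ratio of 0.247 (0.191 to 0.316). Of 9 phosphatase genes related to Dusp1, 7 passed, with a median log2 ratio of -0.63, 1 of them high and 2 low (14.3% and 28.6%, beside 16.8% and 25% of all genes). Dusp10, named after its value was seen, was the 1 at a ratio of 2 or more with 3.09 and 1.28 (1.16 to 5.37), and Dusp6 and Dusp7 were the 2 at 0.5 or less with 12.5 and 29.1 and with 11.9 and 41.9. Dusp16 had 27.4 and 41.9 and Dusp9 18.1 and 31.0, so none of the named relatives reached the level of Dusp1.

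The genes with values nearest to those of a member were found by Euclidean distance over natural logs. Over exon and intron values of both libraries, among 13582 genes, these were Dnmt3a for Egr1 (distance 0.234), Rngtt for Dusp1 (0.128), Bend5 for Atf3 (0.167) and Asb2 for Fosb (1.52). Over exon values alone, among 651 genes without an intron value, they were Znhit2 for Jun (0.0653), 4932415D10Rik for Junb (0.0803), Olfr45 for Jund (0.0263) and Fthl17b for Ier2 (0.0851). Fos and Ier3, with intron values of 0, were not compared. Likeness in 2 libraries says nothing of shared control.

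A sequence feature known from unstable RNA, which the choice of genes did not use, was found in most members. AU-rich elements built on the pentamer ATTTA recruit proteins that hasten removal of the poly(A) tail. Of the 10 members 9 held at least 1 such pentamer after the stop codon, beside 60.8% of the genes with an annotated 3′ UTR, and Ier2 held none. The number per 1000 bases of 3′ UTR was 8.16 in Ier3, 5.80 in Dusp1 and 4.91 in Fos, above 97.9%, 94.7% and 92.3% of genes. The median of the 10 was 2.89, beside 1.06 over all genes, and Fosb, at 0.466, lay below the latter with Ier2. The longer form TATTTAT occurred in 7 of 10, beside 24.5% of genes. Density did not order the members by ratio, as Fos was the highest member and Ier3 and Dusp1 were at or under a ratio of 1. The stretches with most pentamers are shown for these 3 genes and Jun, 30 bases each of GRCm38 with ATTTA in capitals.
Fos, chr12:85477109-85477138, plus strand: caATTTATTTAttaagatggattctcagat
Ier3, chr17:35822491-35822520, plus strand: atATTTAtgtATTTAtgtatatcctcctag
Dusp1, chr17:26506148-26506177, minus strand: ttATTTATTTAacacccccctcacccccca
Jun, chr4:95049206-95049235, minus strand: tcATTTAtaatcataggaaagATTTAgtaa

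Labeling depends on uridines, and 7 of 10 transcripts held fewer than the median transcript, with a median of 459 beside 555 over all genes. Junb and Jund were the poorest in uridine, at 17.3% and 17% of bases, under all but 2.37% and 1.82% of genes, and both had ratios near 1. Fos held 513 uridines, 24.3% of its bases, near the middle of all genes.

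Promoter sequences of 300 bases, 250 before and 50 after the annotated start, were found in RefSeq (GRCm38.p6) for 8 members: Fos, Fosb, Jun, Junb, Jund, Ier3, Atf3 and Dusp1. Egr1 and Ier2 were not matched. The window of Jund belongs to a start 1210 bases from that of the transcript described above and was left out after this was seen, while the other 7 starts lay within 47 bases of those of the transcripts. Motifs were searched on both strands and their share taken over 32851 promoters. The short CRE, TGACG, occurred in 5 of 7, Fos, Fosb, Junb, Atf3 and Dusp1, beside 20.8% of all promoters. The full CRE, TGACGTCA, which contains the short one, occurred in Dusp1 alone, beside 1.79%. The TATA box, TATAAA, occurred in Fos and Junb, beside 13.6%, and the E-box, CACGTG, in Dusp1, beside 7.15%. The CArG box and the AP-1 site, TGANTCA, were in none of the 7 windows, beside 1.63% and 7.81%. Sites further than 250 bases before the start were not searched, and Egr1, Ier2 and Jund had no window in use. With shares this low in all promoters, nothing is read from these absences. The promoters of Fos, the member with the highest ratio, and of Dusp1, the most abundant of the 7, are shown in full with matches in capitals. In Fos these are TGACG at both early positions and then TATAAA, and in Dusp1 TGACG, TGACGTCA and CACGTG in that order.
Fos, chr12:85473640-85473939, plus strand: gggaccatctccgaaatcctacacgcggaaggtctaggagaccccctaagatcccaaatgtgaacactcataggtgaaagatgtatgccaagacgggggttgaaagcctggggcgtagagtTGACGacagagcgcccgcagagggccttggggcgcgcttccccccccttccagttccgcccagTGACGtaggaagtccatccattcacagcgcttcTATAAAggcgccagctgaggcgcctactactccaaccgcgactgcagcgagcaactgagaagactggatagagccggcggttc
Dusp1, chr17:26508423-26508722, minus strand: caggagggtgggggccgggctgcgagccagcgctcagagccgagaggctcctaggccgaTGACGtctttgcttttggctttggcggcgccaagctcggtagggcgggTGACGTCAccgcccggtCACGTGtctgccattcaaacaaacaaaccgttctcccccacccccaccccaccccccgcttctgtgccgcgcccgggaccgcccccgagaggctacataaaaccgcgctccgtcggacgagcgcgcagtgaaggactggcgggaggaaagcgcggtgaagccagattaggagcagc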

How the data were processed

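Labeled and unlabeled RNA of wild-type embryonic stem cells were each measured in 1 library in this series. The paper also used further replicates from another series, which were not used here. The authors removed ribosomal reads and, per the submitters' processing notes, used STAR 2.5.0 and RSEM on mm10 (GRCm38). They deposited a relative abundance for exons and introns of each transcript, called TPM. It is treated here as a score, since each deposited column sums to 10 times a TPM total. Transcripts were matched to GENCODE M21.

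The members and gene lists were chosen with earlier results of these data known. Named genes were all members, in each list the 3 highest and the 1 lowest ratio at a mean of at least 10, and the nearest gene to a member. Other list genes were named after their values were seen. Older symbols (Cyr61, Ctgf, Mkl1 and Mkl2) were matched through RefSeq synonyms. Rates follow the equations of the study on 4000 grid points, and the solver and the estimate of reads were tested on simulated data. The simulated ratios had no noise and the simulated counts were whole. The fit used where no exact solution exists was not tested in this way. With 1 library per pool no p-value was computed. Alternatives were pseudocounts of 0.1 and 1, centring, other minimums, sums over transcripts, subtraction of the assumed leakage and other fits of the rates. The scripts ran in Python 3.11.15 with scipy 1.17.1, numpy 2.4.6, matplotlib 3.10.9 and pandas 2.3.3.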

Additional observations from a re-analysis of the deposited data

How the results depend on the processing

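No paired analysis was possible because each pool has 1 library, without a test. A value was taken to hold when it moved by less than 1.5 times and, for the median log2 ratio, kept its sign. The median log2 ratio of the members, 0.19, changed sign to -0.01 after subtraction of leakage and to -0.38 with a mean exon value above 10, which leaves Egr1, Dusp1, Ier2 and Ier3. The count at a ratio of 2 or more was 0 with that minimum and 2 after centring on the median of all genes. The median labeled intron to exon ratio was 0.183 with that minimum and 0.0541 with a pseudocount of 0.1, which brings in the introns listed at 0. The median degradation half-life was 44.6 min with that minimum, 28.6 min with the sum over protein-coding transcripts and 5.21 min with both variables fitted. The cause of the other changes was not tested.

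Of 124 values of single members under an alternative, 112 held and 12 moved. Some of the 112 could not have moved. Other fits of the rates leave the intron to exon ratios as they are, and a sum over transcripts changes nothing in genes with 1 protein-coding transcript. The count is thus no measure of stability. Of the 50 log2 ratios among the 124 values 3 changed sign, all with a small shift: Junb to -0.01 and Jund to -0.18 after subtraction of leakage, and Dusp1 to 0.09 after centring. Centring shifts every gene alike. After subtraction of leakage Egr1 passed a ratio of 0.5, at -1.23. No sign change met Fos, the member at a ratio of 2 or more. The log2 ratio of Fos was 1.09 with a pseudocount of 1, and that of Fosb ran from -3.80 after subtraction of leakage to -0.44 with a pseudocount of 1. Estimated reads without the correction of length, an alternative chosen after seeing the data, moved by less than 1.5 times in all 20 cases. This was fixed in advance, since the correction takes off 100 bases and the shortest transcript used has 1131 exonic bases. Few reads limit Fos, Fosb, Junb and Jund the most.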
